A study of Mus musculus with 4 samples.

Results

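Gzmk-positive CD8 effector T cells are tumor-infiltrating CD8+ T cells that carried RNA of the chemokine Ccl5 and of granzyme K, little RNA of granzyme B, and neither the pair of exhaustion-type receptors Pdcd1 and Lag3 nor the pair of interferon-induced genes Ifit1 and Ifit3. They were chosen by RNA counts of unique molecular identifiers (UMIs, each standing for 1 captured molecule) in barcodes where 200 to 3000 genes were detected and mitochondrial UMIs reached at most 5%. A member had at least 3 UMIs of Cd8a and Cd8b1 together, 0 of Cd4, at least 20 of Ccl5, at least 1 of Gzmk, at most 1 of Gzmb, not both Pdcd1 and Lag3 present, and not both Ifit1 and Ifit3 present. This rule selected 647 of the 21900 cells that passed the limits on genes and mitochondrial UMIs. The cells came from subcutaneous tumors of the Tsc2-deficient mouse kidney tumor line 105K, grown in male wild-type C57BL/6J mice injected at 6 weeks of age. In the control group (sh-NC) the tumor cells carried a short hairpin RNA without a target. In the knockdown group (sh-B7-H3 (1)) they carried a hairpin directed at Cd276, which encodes the checkpoint ligand B7-H3. The T cells themselves carried no hairpin. Both tumor lines were puromycin-selected pools of transduced cells, and 1 hairpin against Cd276 was used. Per group, live CD3+ cells were sorted from 80 pooled tumors and read by CITE-seq, which counts polyadenylated RNA and antibody-derived surface tags in the same droplet, in 2 libraries. The design text describes the libraries of a group as lanes of 1 pool. Elsewhere in the study's text they are called independent samples. They are treated as lanes, so p-values may measure only technical spread and speak of these pools, not of other mice. Handling of the pools and the hairpin cannot be told apart.

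CD8 T cells recognize peptides on MHC class I molecules and kill target cells with perforin and granzymes, serine proteases that are delivered from secretory granules. Granzyme K is a tryptase-like member of the family and marks CD8 cells that are often described as early or transitional effectors in tumors and aged tissue, whereas granzyme B marks cells with strong killing capacity. CCL5 attracts T cells and myeloid cells, NKG7 is a granule membrane protein needed for degranulation, S100A6 is a calcium-binding protein of activated and memory T cells, and CXCR6 is the receptor for CXCL16 on cells retained in tissue. CD38 and CD39 are surface enzymes that break down NAD and extracellular ATP, and both rise on T cells that have met antigen for long.

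There were 77 and 102 members in control libraries 1 and 2, against 178 and 290 in knockdown libraries 1 and 2. They had median depths of 5771 and 5808 against 5783 and 5655 RNA UMIs, which are close. Their mitochondrial UMIs had medians of 2.34 and 2.20% against 2.84 and 2.76%. The limits on genes and mitochondrial UMIs kept 7549 of 12112 and 6233 of 10589 called control barcodes. In the knockdown libraries they kept 3499 of 7030 and 4619 of 9129. Summed over members, a library held 490938 to 1780825 RNA UMIs and 495467 to 1143834 tag UMIs. Counting between lanes of a group varied 1.30 and 1.36 times as much as counting alone gives for RNA (chi-square over its degrees of freedom), but 10.5 times in the control and 65.8 times in the knockdown group for tags. No barcode of a member was shared between libraries, whereas 17 to 35 called barcodes were shared by each pair of libraries. Cd276 RNA gave 9 to 11 UMIs per library over all called cells and 0 in members, so the knockdown of the tumor cells cannot be checked in these T cells.

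The label was checked against markers. Surface protein, which the rule did not use, was that of CD8 cells. The CD8b tag had medians of 76 and 59.5 against 51.5 and 39 UMIs per member (control against knockdown libraries), the CD4 tag a median of 1 in every library, and the CD4 tag reached the CD8b tag in 7 members. The given markers Gzmk, Ccl5, Nkg7, S100a6 and Cxcr6 were all higher in members than in other kept cells of the same library, as follows in part from the rule. S100a6, for example, was at 1725 and 2042 CPM in control and 2649.6 and 2649 CPM in knockdown members (CPM, UMIs per 1000000 RNA UMIs summed over the members of a library) and at 231 and 254 against 1085 and 1018 CPM in the other kept cells. RNA of Ccr7, a homing receptor gene of naive T cells, was low, at 24.4 and 35.0 against 9.96 and 20.8 CPM. Foxp3, the factor of regulatory T cells, stayed at or under 6.34 CPM. Of natural killer markers, Ncr1, Klra8 and Klra4 were at 0 in every library, and of stromal or tumor markers Cdh16, Col1a2, Col3a1 and Sparc. The epithelial gene Epcam, the most abundant of that list, was at 26.5 and 27.4 against 10.9 and 20.8 CPM in members (control against knockdown) and at 6.02 and 7.04 against 11.7 and 10.4 CPM in other kept cells, and its part in the results was not tested. The B cell gene Ms4a1 was at 0. Summed over each list, B cell genes were at 196 and 215 against 202 and 221 CPM, CD4 and regulatory T cell genes at 34.6 and 30.4 against 55.2 and 42.1, natural killer genes at 173 and 138 against 146 and 145, and tumor or stroma genes at 38.7 and 41.1 against 15.4 and 29.8. Of their 2, 2, 2 and 1 tested genes 0 were called by edgeR. The gamma-delta list was at 297 and 253 against 324 and 325 CPM, with 1 of 5 tested genes called higher, Trdc, which passed the filter on low counts only through the knockdown libraries and was found in 0 and 1 control and 4 and 11 knockdown members. Summed over 16 macrophage genes, members held 308 and 1287 CPM against 294 and 947 CPM (control against knockdown), which separated the lanes of a group rather than the groups, and 0 of 11 tested were called by edgeR. For 2 of them the value turned with the library left out. The lipoprotein gene Apoe had a log2 fold change of -0.40, and in 5 of 19 alternatives it was called, in both directions, from -1.44 without knockdown library 2 to 1.05 without control library 2 and 1.46 without the members holding macrophage or B cell UMIs. The invariant chain gene Cd74 had 0.60, ran from -0.74 without knockdown library 2 to 1.69 without control library 2, and was called higher in 5 of 18 alternatives, the replicate block among them. A UMI of the most typical macrophage or B cell genes was found in 5.19 and 6.86% of control members and in 17.4 and 16.2% of knockdown members, and likewise in 4.74 and 5.34% against 16.5 and 11.9% of Ccl5-low CD8 cells, a resting comparison class described with the surface tags.

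The rule used measured values, and the genes in it are given here as a description only. Gzmk reached a median of 3 and 2 UMIs per member against 2 and 2 (control against knockdown), with maxima of 8 to 10. Members with at least 3 UMIs made up 53.2 and 48.0% against 38.8 and 36.6%. Ccl5 had medians of 81 and 81.5 against 97.5 and 89 UMIs. Pdcd1 was present in 42.9 and 49.0% of control members and in 41.6 and 41.4% of knockdown members, and Lag3 in 29.9 and 19.6% against 29.8 and 29.7%, never both in a cell by construction. Close to the limits, members with exactly 1 Gzmk UMI numbered 19 and 30 against 64 and 106, and cells that met every other condition with 0 Gzmk UMIs numbered 73 and 78 against 77 and 96. The Ccl5 limit cut through few cells: 1 and 3 against 6 and 6 members had 20 to 24 UMIs, and 3 and 4 against 0 and 5 cells just outside had 15 to 19. Of the Gzmb limit, 17 and 27 against 31 and 63 members had 1 UMI and 9 and 14 against 24 and 21 cells outside had 2.

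Members were more frequent among T cells of knockdown tumors. They made up 1.02% (exact binomial 95% confidence interval 0.806 to 1.27%, which covers counting error only) and 1.64% (1.34 to 1.98%) of kept cells in control libraries. In knockdown libraries they made up 5.09% (4.38 to 5.87%) and 6.28% (5.60 to 7.02%). The mean share was 1.33 ± 0.436% in control libraries against 5.68 ± 0.842% in knockdown libraries (SD, n = 2 each), 4.28 times apart. Among cells with Cd8 RNA, meaning at least 3 Cd8a and Cd8b1 UMIs and no Cd4 UMI, members made up 2.39 and 3.65% against 13.2 and 15.7%. The means were 3.02 ± 0.890% and 14.5 ± 1.77% (SD, n = 2 each), 4.80 times apart. The intervals of control and knockdown libraries did not overlap on either denominator. With 2 libraries against 2, the exact permutation test (two-sided) gave p = 0.333 for both, the smallest value it allows, so the test could not pass here. Without control library 2 the ratio among kept cells was 5.57, and without control library 1 it was 3.47. With mitochondrial UMIs up to 10% it was 3.61.

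**Figure D1:**
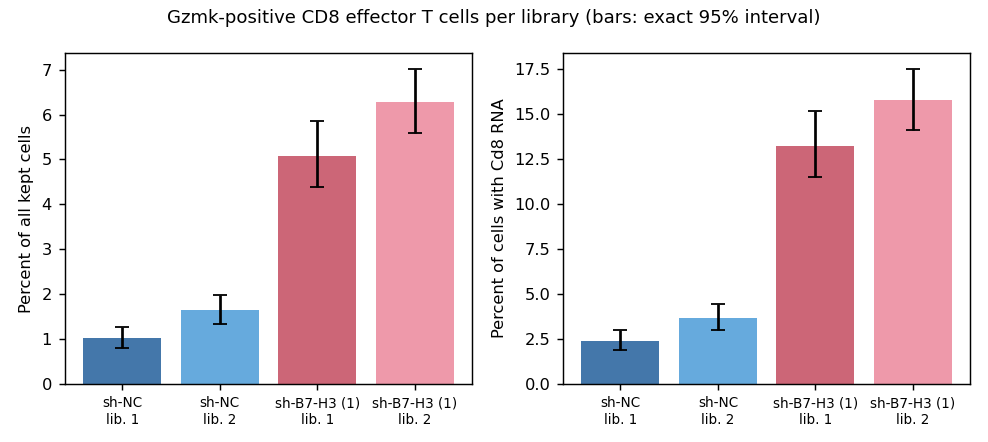
Share of Gzmk-positive CD8 effector T cells in each of the 4 libraries, as percent of all kept cells (left) and of cells with Cd8 RNA (right). Bars give the share and whiskers its exact 95% binomial interval. The control libraries sit at 1.02 and 1.64% of kept cells and the knockdown libraries at 5.09 and 6.28%.

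RNA of Gzmk and Ccl5 was also more frequent in a class of Cd4-positive cells of the knockdown libraries. In Cd4-positive cells with RNA of naive T cell genes, Ccr7 among them, a Gzmk UMI was found in 0.442 and 0.681% of control cells. In knockdown cells it was found in 6.34 and 3.15%. Median depths were 8006 and 8552 against 7419 and 7884 UMIs. In the same cells at least 1 Ccl5 UMI was present in 14.2 and 19.1% against 73.9 and 70.3%, and at least 20 in 0.110 and 0.817% against 5.63 and 3.60%. Cells of this class with a Gzmk UMI numbered 4 and 5 in control and 9 and 7 in knockdown libraries. Of these, 1 and 4 against 6 and 3 also held at least 20 Ccl5 UMIs. Whether they expressed both genes was not tested, so the class is no pure measure of free RNA. The share of members was computed again with stricter limits. With at least 40 Ccl5 UMIs the ratio among Cd8 RNA cells was 4.96, and with at least 2 Gzmk UMIs it was 4.22. The part of free RNA in the shares was not tested.

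CD8 cells with at least 20 Ccl5 UMIs as a whole, members included, were also more frequent in knockdown tumors. Of Cd8 RNA cells, 15.8 ± 2.66% in control libraries and 62.8 ± 1.97% in knockdown libraries had at least 20 Ccl5 UMIs (SD, n = 2 each), a 3.97-fold ratio. Within these Ccl5-high cells, members made up 17.1 and 20.6% (control) against 20.6 and 25.6% (knockdown), ranges that touch (ratio 1.22, exact permutation p = 0.667). Cells like members but with 0 Gzmk UMIs made up 16.3 and 15.8% of control and 8.91 and 8.48% of knockdown Ccl5-high cells. Those with at least 2 Gzmb UMIs made up 13.1 and 15.6% against 10.995 and 9.45%. Cells with both Pdcd1 and Lag3 were the largest branch, with 46.5 and 40.6% of Ccl5-high cells in control and 54.4 and 51.9% in knockdown libraries. The last branch, with both Ifit1 and Ifit3 but not both Pdcd1 and Lag3, held 6.90 and 7.47% against 5.09 and 4.59%. None of these divisions can pass the exact permutation test, whose smallest p is 0.333.

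**Figure D2:**
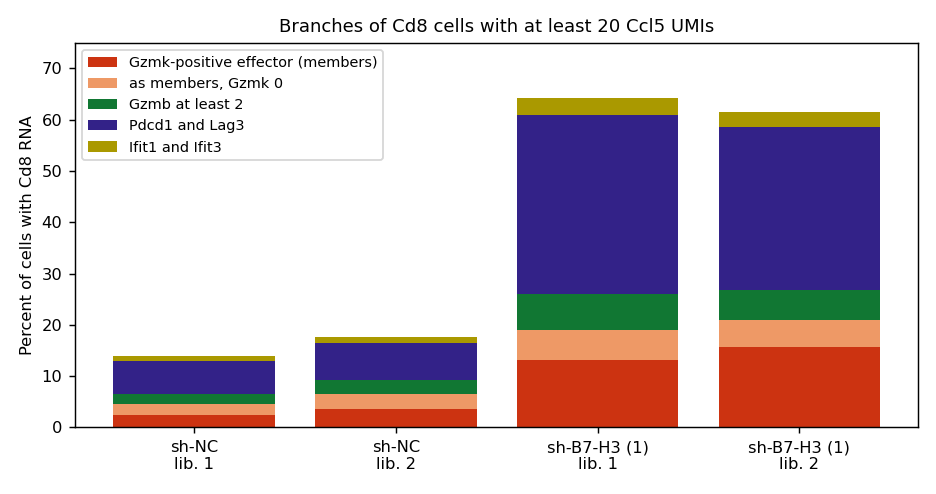
Branches of the Cd8 cells with at least 20 Ccl5 UMIs, stacked as percent of cells with Cd8 RNA in each library. The whole stack reaches 13.9 and 17.7% in control against 64.2 and 61.5% in knockdown libraries. Members, at the bottom of each bar, reach 2.39 and 3.65% against 13.2 and 15.7%.

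Surface tags, a readout the rule did not use, set members apart from resting CD8 cells in every library. They were compared with 5268 Ccl5-low CD8 cells (Cd8 RNA cells with at most 2 Ccl5 UMIs, no Gzmk or Gzmb UMI and at least 1 UMI of naive T cell genes, Ccr7 among them) and with 338 Gzmb-high CD8 cells (as members, but with at least 2 Gzmb UMIs and any Gzmk count), in 1 edgeR fit of summed tag counts with library as a block. Against the Ccl5-low cells 49 of 197 tags passed an adjusted p under 0.05 (24.9% of tags tested), 24 higher and 25 lower in members. With library totals in place of TMM scaling, which assumes that most tags do not change, 154 tags passed, 22 higher and 132 lower, so the split rests on the scaling. The 15 tested tags named here kept their direction in all 8 alternatives run.

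CD38 separated the classes most. Its median was 520.0 and 502 against 458 and 322 tag UMIs per member (control against knockdown libraries) and 11 and 9 against 28 and 20 in Ccl5-low cells, so the classes were far apart in all 4 libraries (log2 difference 3.77 ± 0.26, adjusted p = 5.05e-06). CD39 had medians of 282 and 252 against 238 and 168 in members and 18 and 15 against 29 and 22 in Ccl5-low cells (log2 difference 2.90 ± 0.18, adjusted p = 3.20e-06). The adhesion molecule CD54 (ICAM-1), the sialoglycoprotein CD43, the integrin beta 1 chain CD29, the inhibitory receptor CD200R and the costimulatory ligand CD86 were higher as well, with log2 differences of 1.81, 1.602, 1.52, 1.32 and 1.31. Lower on members were the peptidase CD26 (log2 difference -1.32 ± 0.06, adjusted p = 5.55e-07), the adhesion molecule CD102, the adenosine-producing enzyme CD73, the interleukin-7 receptor chain CD127, the activating receptor CD226, CD1d and a T cell receptor V beta chain tag (TCRVb5.1_5.2), with log2 differences of -1.15, -1.12, -1.11, -0.79, -0.62 and -0.63 in that order. The call of TCRVb5.1_5.2 was lost in 3 of 8 alternatives. CD205 was lower too (log2 difference -2.80 ± 0.71, adjusted p = 0.0163), but its level in Ccl5-low cells ran from 1483 to 23612 per 1000000 tag UMIs and the call was lost without either control library. The PD-1 tag, whose gene the rule used, had medians of 38 and 41 against 41 and 30 in members and 6 and 5 against 10 and 8 in Ccl5-low cells. The PD-1 tag was not limited to members with a Pdcd1 UMI. Members without one had medians of 34.5 and 33.5 against 39.5 and 26, and those with one 62 and 50 against 46 and 36. A count of 0 UMIs does not show that a cell lacks Pdcd1 RNA.

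No tag passed between members and Gzmb-high CD8 cells. By edgeR 0 of 197 tags passed (0.0%), 16 had an unadjusted p under 0.05, and 1 passed with library totals. For CD38 the log2 difference was -0.01 ± 0.23 and for CD48, the tag with the lowest adjusted p, -0.24 ± 0.05 (adjusted p = 0.17). This does not show that the classes are alike.

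The cells just outside the Gzmk limit carried other surface tags in control than in knockdown libraries. In the control libraries, cells like members but with 0 Gzmk UMIs had median CD38 tags of 70 and 55, against 520 and 502 in members, and median Ly-6C tags of 301 and 315 against 58 and 48. In the knockdown libraries the same class had CD38 medians of 405 and 247, against 458 and 322 in members, and Ly-6C medians of 19 and 20 against 18 and 19. CD39 in this class had medians of 28 and 23.5 in control and 225 and 136 in knockdown libraries, at median RNA depths of 11365 and 10479 against 5964 and 5612 UMIs. Members with a single Gzmk UMI had CD38 medians of 446 and 464 against 420.5 and 292, and those with at least 3 had 520.0 and 547 against 454 and 338. These values are a description, since the Gzmk limit defined the classes.

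**Figure D3:**
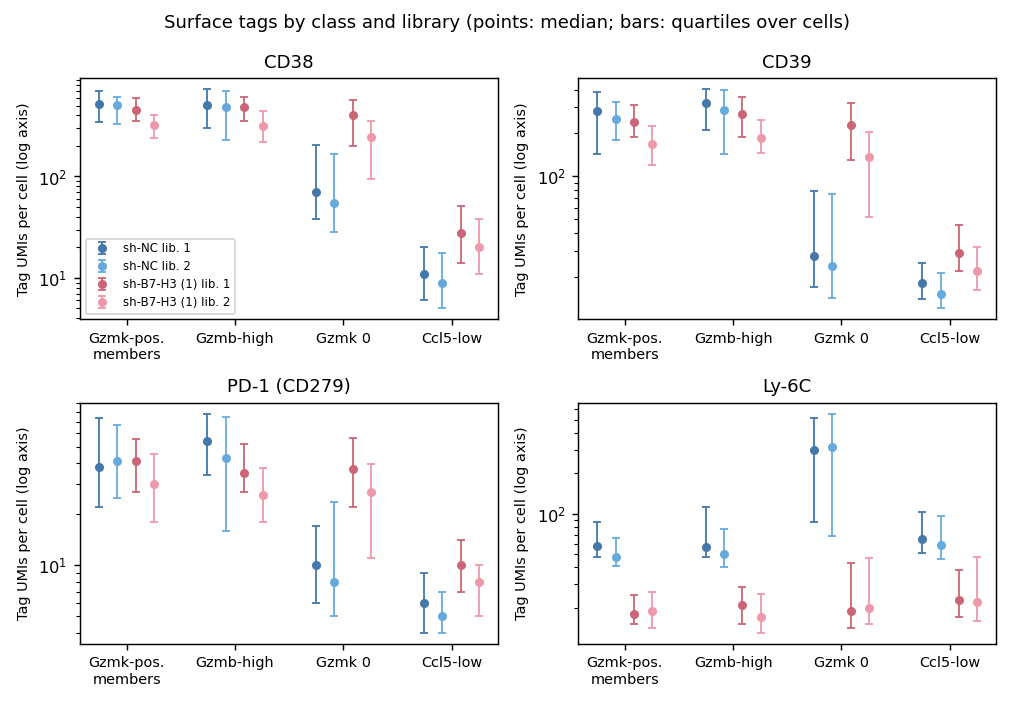
Median tag UMIs per cell (points, log axis) with quartiles over cells (bars) of CD38, CD39, PD-1 and Ly-6C in 4 classes of Cd8 RNA cells with 4 libraries each. Members and Gzmb-high cells lie together, Ccl5-low cells lie far below them for CD38 (9 to 28 against 322 to 520 in members), and the class with 0 Gzmk UMIs lies low in control (55 and 70) and high in knockdown libraries (247 and 405).

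Between the groups, edgeR's quasi-likelihood test on UMIs summed over the members of each library called 157 of 6664 tested genes at an adjusted p under 0.05 (2.36% of those tested), 103 higher (1.55%) and 54 lower (0.81%) in knockdown members. A change of at least 1 on the log2 scale was reached by 26 of the higher and 12 of the lower genes. The tested genes include rule genes and genes that passed the filter on low counts only through the group where they were high. Prss2, Trdc and Klre1 passed it through the knockdown group, and Gzma and Xcl1 through the control group. Trdc and Klre1 are counted among the higher genes, Gzma and Xcl1 among the lower. The counts were not corrected for this. With library totals in place of TMM, 169 genes passed, of which 54 were higher and 115 lower, and the median log2 fold change of all tested genes moved from 0.00 to -0.11, so directions of small changes rest on the scaling. DESeq2 called 78 genes, all of them among the 157, and gave no adjusted p for 45 of the 157. The CPM of the groups did not overlap for 45.1% of the tested genes, with the control libraries above for 31.5% and the knockdown libraries above for 13.5%, so a lack of overlap alone sets no gene apart. Changes are given as log2 fold change of knockdown over control members ± SE, after the CPM of each library.

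Of the cytokine and chemokine genes, Ccl3 was called higher. Xcl1 is counted among the lower genes, but no test of it is given. Ccl3, a chemokine gene of activated effector cells, was at 75.4 and 103 CPM in control and 180.1 and 198 CPM in knockdown members (log2 fold change 1.17 ± 0.16, adjusted p = 5.85e-06). With at least 2 Gzmk UMIs its log2 fold change was 2.07. In droplets without a cell it was at 79.1 and 98.3 against 348 and 342 CPM, and the part of this RNA in the result was not tested. Xcl1, the lymphotactin gene that attracts cross-presenting dendritic cells, was at 97.8 and 77.6 CPM in control and 10.9 and 29.8 CPM in knockdown members (log2 fold change -1.85). Knockdown library 1 lay under the limit of the filter on low counts, so the control group carried Xcl1 past it. Few cells carried Xcl1: a UMI was present in 8 of 77 and 8 of 102 control members and in 4 of 178 and 22 of 290 knockdown members. A single member held 29 of 48 Xcl1 UMIs in control library 1 and 34 of 51 in control library 2. In knockdown library 1 a single member held 9 of 12. Without knockdown library 2 the log2 fold change of Xcl1 was -2.85. With at least 2 Gzmk UMIs it was -0.65 and not called, and with at least 40 Ccl5 UMIs it turned to 0.31. This change rests on few cells. Ifng, the interferon-gamma gene, was at 87.6 and 134 against 121 and 142 CPM (control against knockdown, adjusted p = 0.411), and Ccl4, a close relative of Ccl3, at 371 and 685 against 492 and 662 CPM (log2 fold change 0.22 ± 0.14, adjusted p = 0.561). Of the 8 tested genes of the cytokine and chemokine list, 1 was called higher and 1 lower, and their median log2 fold change was 0.14, beside 0.00 over all genes.

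Of the genes of the killing machinery, Nkg7 was called higher. Gzma is counted among the lower genes, but no test of it is given. Nkg7 was at 3451 and 3633 CPM in control and 4265 and 3949 CPM in knockdown members, every knockdown library above every control library (log2 fold change 0.32 ± 0.05, adjusted p = 8.72e-05). In other kept cells Nkg7 was at 536 and 599 against 2220 and 2107 CPM, and the part of free RNA in its change was not tested. Perforin (Prf1) was at 108 and 113 against 112 and 91.0 CPM (log2 fold change -0.03 ± 0.17, adjusted p = 0.97), and the death ligand gene Fasl at 179 and 170.4 against 126 and 127 CPM (-0.35 ± 0.14, adjusted p = 0.258). Gzma, the gene of granzyme A, was at 99.8 and 48.7 CPM in control and 9.96 and 1.12 CPM in knockdown members (log2 fold change -3.82). It passed the filter on low counts only through the control libraries. Its UMIs came from 3 and 2 control members and from 5 and 2 knockdown members, that is from 3.90, 1.96, 2.81 and 0.690% of members. A single member held 32 of 49 UMIs in control library 1 and 24 of 32 in control library 2. In knockdown library 1 a single member held 6 of 11. Among 12 tested granule genes 1 was called higher and 1 lower, with a median log2 fold change of -0.20. Cxcr6 was at 892 and 962 against 1002 and 973 CPM (log2 fold change 0.20 ± 0.07, adjusted p = 0.166), and was called with up to 5000 detected genes per cell (0.31). The rule's own genes, as a description, were at 458 and 435 against 406 and 385 CPM for Gzmk and 34.6 and 41.1 against 28.1 and 35.4 CPM for Gzmb.

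Of the S100 genes, S100a4, S100a6 and S100a11 rose. S100a6, a marker of the class, had a log2 fold change of 0.60 ± 0.06, adjusted p = 2.36e-08, from 1725 and 2042 CPM to 2649.6 and 2649 CPM. S100a4, a calcium-binding protein of motile and memory-type T cells, was at 892 and 1077 CPM in control and 1676 and 1369 CPM in knockdown members (log2 fold change 0.72 ± 0.08, adjusted p = 2.45e-07). S100a11 was at 768 and 816 CPM in control and 1069 and 896 CPM in knockdown members (log2 fold change 0.41 ± 0.08, adjusted p = 0.00172), a call lost without knockdown library 1 and with at least 2 Gzmk UMIs. In all 3 the knockdown libraries lay above the control libraries, and S100a4 and S100a6 were called in all 19 alternatives. Their RNA in droplets without a cell was also higher in the knockdown libraries, 126 and 162 against 538 and 536 CPM for S100a4 and 204 and 229 against 743 and 613 CPM for S100a6, lower than in members in every library, and its part was not tested. S100a10, the partner of annexin A2, was at 1289 and 1307 against 1307 and 1169.7 CPM (log2 fold change 0.04 ± 0.07, adjusted p = 0.89). Other genes of the same list fell. The galectin gene Lgals3 was at 110.0 and 114 against 62.5 and 57.8 CPM (-0.80 ± 0.17, adjusted p = 0.00548). The actin gene Actg1 was at 1322 and 1418 against 1046 and 925 CPM (-0.37 ± 0.07, adjusted p = 0.00097), and Actb at 4797 and 5080.4 against 3908 and 3908 CPM (-0.23 ± 0.05, adjusted p = 0.00398). The actin-binding genes Pfn1 and Tmsb10 fell as well (-0.21 and -0.20). Tmsb4x, outside the list, was at 16766 and 17085 against 20273 and 18840 CPM (log2 fold change 0.32), so actin-binding genes did not all fall. Of 19 tested genes of S100 proteins, galectins, annexins and the cytoskeleton, 3 were called higher and 5 lower, with a median of 0.01. The call of Lgals3 was lost without control library 2 and without knockdown library 2, that of Actg1 without knockdown library 2, that of Tmsb10 without control library 2 or knockdown library 1, and that of Pfn1 without control library 2 or either knockdown library.

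The sequences before the start sites of 3 genes are shown because S100a4 and S100a6 lie close together on chromosome 3 and both rose, and because Gzmk names the class. They are 250 bases each, upstream of the RefSeq start (GRCm38.p6, the mm10 build), 5′ to 3′ on the gene's strand: Gzmk at chr13:113180966-113181215 (minus strand), S100a4 at chr3:90603520-90603769 and S100a6 at chr3:90612644-90612893 (plus strand). Capitals mark matches on either strand to the Runx motif TGTGGT, the T-box motif GTGTGA and the TATA box TATAAA, searched as plain letters.
Gzmk: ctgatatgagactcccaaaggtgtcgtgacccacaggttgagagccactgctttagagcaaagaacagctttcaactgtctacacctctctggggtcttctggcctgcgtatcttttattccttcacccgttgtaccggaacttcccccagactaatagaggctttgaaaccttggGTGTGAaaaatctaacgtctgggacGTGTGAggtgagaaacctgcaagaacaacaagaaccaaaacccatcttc
S100a4: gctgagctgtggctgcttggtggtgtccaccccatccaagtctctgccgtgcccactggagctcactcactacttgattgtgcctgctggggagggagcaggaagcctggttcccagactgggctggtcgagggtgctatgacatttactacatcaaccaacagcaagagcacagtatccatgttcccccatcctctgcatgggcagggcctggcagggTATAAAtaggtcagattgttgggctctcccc
S100a6: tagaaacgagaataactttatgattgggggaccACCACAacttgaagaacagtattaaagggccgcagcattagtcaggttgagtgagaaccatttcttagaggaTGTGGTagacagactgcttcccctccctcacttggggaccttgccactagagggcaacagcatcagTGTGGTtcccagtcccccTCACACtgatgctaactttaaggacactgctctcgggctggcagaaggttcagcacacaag
The Gzmk sequence held 2 T-box matches, the S100a4 sequence 1 TATA box close to the start, and the S100a6 sequence 3 Runx matches and 1 T-box match. Of 32851 promoters of this length in RefSeq's mouse annotation, 14.0% held the Runx letters, 12.3% the T-box letters and 12.4% the TATA letters. These shares count promoters with at least 1 match, so a single match is common. The share with several matches was not computed, and the matches are given as a description.

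Among transcription factors of effector and exhausted cells, Ikzf2 and Rbpj rose. Ikzf2, the gene of Helios, was at 95.7 and 79.1 CPM in control and 150.3 and 143 CPM in knockdown members (log2 fold change 0.87 ± 0.16, adjusted p = 0.000943, lost without control library 2). Rbpj, the DNA-binding partner of Notch, was at 102 and 103 CPM in control and 192 and 149.9 CPM in knockdown members (log2 fold change 0.82 ± 0.16, adjusted p = 0.00178). Rbpj was called in all 19 alternatives. Tox, the factor that sets up exhaustion, was at 199.6 and 239 against 267 and 234 CPM (log2 fold change 0.28 ± 0.12, adjusted p = 0.336), Eomes at 145 and 105 against 137 and 122 CPM (0.18 ± 0.16, adjusted p = 0.746) and Tbx21, the gene of T-bet, at 18.3 and 16.7 against 20.8 and 19.7 CPM (0.32 ± 0.37, adjusted p = 0.808). Of 16 tested factors 2 were called higher and 0 lower, with 12 of 16 log2 fold changes above 0 and a median of 0.21.

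Of the inhibitory receptors, Cd200r1 was called higher and Cd160 lower. Cd200r1, an inhibitory receptor for CD200, was at 22.4 and 39.6 CPM in control and 72.4 and 55.6 CPM in knockdown members (log2 fold change 1.07 ± 0.27, adjusted p = 0.0194). Cd160, a receptor for HVEM, was at 79.4 and 95.9 CPM in control and 50.7 and 45.5 CPM in knockdown members (log2 fold change -0.78 ± 0.20, adjusted p = 0.0259). Both calls were lost in 7 of the 18 alternatives that gave an adjusted p, that of Cd200r1 without control library 1 or knockdown library 1 and that of Cd160 without control library 2 or either knockdown library. Havcr2, the gene of TIM-3, was at 28.5 and 28.9 against 60.7 and 40.4 CPM (log2 fold change 0.88 ± 0.29, adjusted p = 0.13), Cd38 at 46.8 and 65.4 against 86.9 and 81.4 CPM (0.66 ± 0.20, adjusted p = 0.0828) and Entpd1, the gene of CD39, at 55.0 and 54.8 against 79.7 and 69.6 CPM (0.54 ± 0.20, adjusted p = 0.223). These last 3 did not pass. Of 9 tested receptors 1 was called higher and 1 lower, and the median was 0.54. Of the killer receptors, Klre1 was at 22.4 and 7.61 against 49.8 and 43.8 CPM (1.83, and 1.14 without control library 2). Control library 2 lay under the limit of the filter on low counts. The knockdown group thus carried Klre1 past it, and no test of it is given. The activating receptor Cd226 was at 122 and 135 against 84.2 and 78.6 CPM (-0.57 ± 0.16, adjusted p = 0.0493, lost when any library was left out).

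Of the genes of resting, recirculating T cells, Klf2, S1pr1, Il7r and Ly6c2 fell. Klf2, the factor that keeps T cells in circulation, was at 130.4 and 149 CPM in control and 62.5 and 71.3 CPM in knockdown members (log2 fold change -0.94 ± 0.16, adjusted p = 0.000297), lost when the top 10% of Scrublet doublet scores were removed. S1pr1, the receptor for exit from tissue that Klf2 drives, was at 55.0 and 48.7 CPM in control and 22.6 and 25.3 CPM in knockdown members (log2 fold change -0.97 ± 0.26, adjusted p = 0.038, lost when any library was left out). Il7r, the survival receptor of resting and memory cells, was at 143 and 128 CPM in control and 71.5 and 72.4 CPM in knockdown members (log2 fold change -0.78 ± 0.16, adjusted p = 0.00284), lost in members thinned to at most 4000 UMIs. Ly6c2, a gene of memory-type CD8 cells, was at 328 and 163 CPM in control and 55.2 and 134 CPM in knockdown members (log2 fold change -1.13 ± 0.23, adjusted p = 0.00356), lost by DESeq2 and when the top 10% of doublet scores were removed. The lanes differed, since its log2 fold change was -0.57 and not called without control library 1, -0.71 without knockdown library 1 and -1.98 without knockdown library 2. The stem-like factor Tcf7 was at 71.3 and 59.3 against 30.8 and 44.4 CPM (log2 fold change -0.62 ± 0.24, adjusted p = 0.232) and Lef1 at 63.1 and 76.1 against 34.4 and 44.9 CPM (-0.68 ± 0.23, adjusted p = 0.139), neither of which passed. In other kept cells Tcf7 was at 288 and 289 against 142 and 142 CPM, and Lef1 at 282 and 272 against 143 and 150 CPM. Ccl5-low cells made up a mean of 74.9% of control and 23.8% of knockdown Cd8 RNA cells. The part of free RNA in the changes of this list was not tested. Of 15 tested genes of this list 4 were called lower and 0 higher, 12 of 15 log2 fold changes were below 0, and the median was -0.68 beside 0.00 over all genes. Among members with at least 2 Gzmk UMIs none of Klf2, S1pr1, Il7r and Ly6c2 was called (adjusted p = 0.339, 0.2, 0.411 and 0.348), with log2 fold changes of -0.67, -0.94, -0.50 and -0.88.

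Of the adhesion and retention genes, Itgb7, Emb and Cd69 fell and Rgs1 rose. Itgb7, the integrin beta 7 chain of gut-homing and epithelial receptors, was at 89.6 and 126 CPM in control and 48.0 and 59.5 CPM in knockdown members (log2 fold change -0.89 ± 0.19, adjusted p = 0.00437, lost without control library 2 and in members thinned to at most 4000 UMIs, where it was -0.45). Emb, the gene of embigin, was at 102 and 109.6 CPM in control and 48.0 and 49.98 CPM in knockdown members (log2 fold change -0.996 ± 0.19, adjusted p = 0.000952). Cd69, an early activation and retention molecule, was at 85.6 and 184 CPM in control and 51.6 and 76.4 CPM in knockdown members (log2 fold change -0.97 ± 0.21, adjusted p = 0.00548). This change rests on control library 2, as it was -0.26 and not called without it, and its call was also lost when the top 10% of doublet scores were removed. Rgs1 and Rgs16, regulators that shorten chemokine receptor signals, rose. Rgs1 was at 240.4 and 237 against 312 and 316 CPM (0.51 ± 0.11, adjusted p = 0.00522, lost without control library 2). Rgs16 was at 44.8 and 24.3 against 86.9 and 48.3 CPM (1.07 ± 0.30, adjusted p = 0.0493, but 0.61 without control library 2 and 0.65 without knockdown library 1, neither called). Of 17 tested genes of chemokine receptors and residency, which include neither Emb nor Rgs16, 1 was called higher and 2 lower, with a median of -0.14.

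Of the cytokine receptors, Ifngr1 fell and Il2rb rose. Ifngr1, a chain of the interferon-gamma receptor, was at 346 and 304 CPM in control and 149 and 175 CPM in knockdown members (log2 fold change -0.87 ± 0.12, adjusted p = 1.01e-05). It was called in all 19 alternatives. Il2rb, the beta chain shared by the interleukin-2 and interleukin-15 receptors, was at 224 and 285 CPM in control and 362 and 363 CPM in knockdown members (log2 fold change 0.61 ± 0.11, adjusted p = 0.000854), a call lost in members thinned to at most 4000 UMIs or with at least 2 Gzmk UMIs. Of 10 tested cytokine receptors 1 was called higher and 1 lower, with a median of -0.07. Among interferon-inducible genes, Ly6a, the gene of Sca-1, was at 358 and 292 CPM in control and 132 and 165 CPM in knockdown members (log2 fold change -0.98 ± 0.13, adjusted p = 4.35e-06). It was called in all 19 alternatives. Socs1, a feedback inhibitor of cytokine signaling, was at 104 and 100.4 CPM in control and 55.2 and 49.98 CPM in knockdown members (log2 fold change -0.85 ± 0.19, adjusted p = 0.00532, lost without knockdown library 2). Ly6e and Irf1 fell by 0.42 and 0.53 on the log2 scale. The call of Irf1 was lost when any library was left out, and that of Ly6e without control library 2. Ifi27l2a rose, at 688 and 533 against 929.7 and 772 CPM (0.60 ± 0.10, adjusted p = 0.000121, and 0.40 without control library 2). DESeq2 did not call it (adjusted p = 0.136). Of 20 tested interferon-inducible genes 1 was called higher and 4 lower, with a median of -0.10.

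Tsc22d3, the gene of the glucocorticoid-induced leucine zipper, fell from 91.7 and 92.8 CPM to 30.8 and 32.0 CPM (log2 fold change -1.43 ± 0.22, adjusted p = 4.10e-05, lost with at least 2 Gzmk UMIs). It was the 1 gene called among 6 tested glucocorticoid-responsive genes, whose median was -0.05. In droplets without a cell it was at 202 and 209 against 93.8 and 81.2 CPM, also lower in the knockdown libraries, and the part of this RNA was not tested. Of 17 immediate early and receptor-signal genes 1 was called, Dusp2 (354 and 324 against 238 and 215 CPM, -0.47 ± 0.11, adjusted p = 0.0125, lost without control library 1 or knockdown library 2), and the median was -0.45. Of 10 heat shock genes Hsp90ab1 and Hspa8 fell (-0.28 ± 0.07, adjusted p = 0.012, and -0.25 ± 0.06, adjusted p = 0.0224, both lost without control library 1 or knockdown library 1) with a median of 0.09. Glycolysis genes had 1 lower call of 14, the lactate dehydrogenase gene Ldha (238 and 236 against 162 and 157 CPM, -0.46 ± 0.12, adjusted p = 0.038, lost when any library was left out), with a median of -0.18. B2m and H2-Q7, light and heavy chain genes of MHC class I, rose (0.23 ± 0.05, adjusted p = 0.00437, and 0.25 ± 0.06, adjusted p = 0.0224), the 2 calls among 12 genes of that list, with a median of 0.08. Neither was called with library totals, and H2-Q7 was lost without control library 2 or knockdown library 2. The CD3 chain gene Cd3g rose as the 1 call among 19 receptor-signaling genes (0.23 ± 0.05, adjusted p = 0.0104, lost with library totals and without knockdown library 1), with a median of 0.08. Among 14 proliferation genes 0 were called by edgeR, and the most abundant, H2afz and Hmgb2, had log2 fold changes of 0.26 ± 0.08, adjusted p = 0.1, and 0.17 ± 0.10, adjusted p = 0.509. H2afz was called with a replicate block (0.26), with at least 40 Ccl5 UMIs (0.36) and with up to 5000 detected genes per cell (0.29), and Hmgb2 with the last of these (0.40).

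The largest rise among the genes ranked by fold change was seen in the other CD8 classes too. Lars2, the mitochondrial leucyl-tRNA synthetase gene, was at 89.6 and 119 CPM in control and 437 and 490.2 CPM in knockdown members (log2 fold change 2.25 ± 0.13, adjusted p = 2.26e-14). It rose by 2.22 in Ccl5-low and by 2.05 in Gzmb-high CD8 cells on the same scale, with a difference from the Ccl5-low cells of 0.06 ± 0.14, adjusted p = 0.973. Droplets without a cell held 345 and 282 against 961 and 656 CPM, and the part of this RNA was not tested. Further genes among the 12 highest were Pdgfb (48.9 and 25.9 against 73.3 and 59.5 CPM, 0.98, and 0.51 without control library 2) and the actin-capping gene Capg (46.8 and 45.6 against 84.2 and 76.4 CPM, 0.90). The adhesion receptor gene Adgrg1 was at 55.0 and 56.3 against 88.7 and 84.2 CPM (0.74). The uncharacterized transcripts AU020206 and AC149090.1 rose as well (0.74 and 0.64, the last 0.42 without control library 2). Further among the 12 lowest were Kbtbd11 (81.5 and 60.9 against 20.8 and 39.3 CPM, -1.03, and -1.62 without knockdown library 2) and Gramd3 (83.5 and 76.1 against 36.2 and 39.9 CPM, -0.93). These calls other than Lars2 were lost in 2 to 9 of the 18 or 19 alternatives that gave an adjusted p.

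Many of these calls depended on which members were counted. With at least 2 Gzmk UMIs, the named genes Lars2, Ccl3, Ikzf2, Rbpj, S100a4, S100a6, Nkg7, Ifi27l2a, Emb, Ly6a, Itgb7 and Ifngr1 remained called. The calls of Actb, Actg1, Pfn1, Tmsb10 and Ly6e were among those lost. In members thinned to at most 4000 UMIs, the calls of Rgs16, Pdgfb, AU020206, Adgrg1, Itgb7 (at -0.45), Socs1, Cd200r1, S1pr1, Il7r, Rgs1, Cd226, Dusp2, Hsp90ab1, Irf1, Lgals3, Il2rb and Ldha were lost. With no Gzmb UMI allowed, those of Rgs16, Pdgfb, Capg, AU020206, Adgrg1, Gramd3, Cd200r1, Cd160, S1pr1, Klre1, Cd226, Dusp2, Irf1, H2-Q7, B2m, Ldha, Pfn1 and Tmsb10 were lost. Removing the top 10% of doublet scores ended the calls of Rgs16, Pdgfb, Ly6c2, Kbtbd11, Cd69, Klf2, Cd200r1, S1pr1, Hsp90ab1, Hspa8, Irf1, H2-Q7, Lgals3, Ldha, Pfn1 and Tmsb10, and moved Il7r to -1.33. Requiring more CD8b than CD4 tag counts ended those of Rgs16, Pdgfb, Adgrg1, Kbtbd11, Cd200r1, S1pr1, Cd226, Cd3g, Hspa8, Irf1, H2-Q7, Ldha, Pfn1 and Tmsb10. DESeq2 did not call AU020206, Ly6c2, Cd226, Dusp2, Ifi27l2a, Irf1, H2-Q7, Ldha and Pfn1. With up to 5000 detected genes per cell the genes Tox, Tcf7, Lef1, Ccl4, Ccr7, Entpd1, Havcr2, Cxcr6, H2afz, Hmgb2, Cd74, Igkc and Ighm were called in addition, and Cd160, Irf1 and Lgals3 (at -0.37) were lost. Elsewhere Ccl4 was called with at least 2 Gzmk UMIs and without control library 2 or knockdown library 1, Havcr2 with mitochondrial UMIs up to 10% and without knockdown library 2, Cd38 with mitochondrial UMIs up to 10%, and Entpd1 and Fasl in members thinned to at most 4000 UMIs. With library totals the log2 fold change of Nkg7 was 0.21 in place of 0.32.

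**Figure D4:**
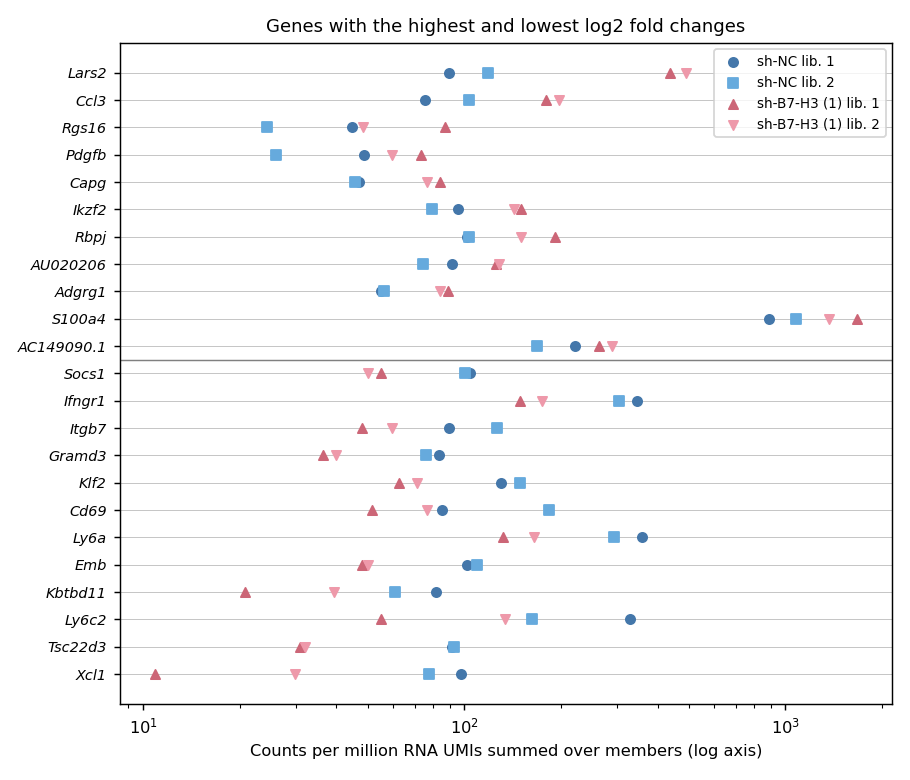
CPM summed over members in each library (log axis) for 11 of the 12 genes with the highest and the 12 with the lowest log2 fold change that passed an adjusted p under 0.05, held at least 50 CPM on average and did not overlap between the groups. Lars2, at the top, goes from 89.6 and 119 to 437 and 490.2 CPM, and Xcl1, at the bottom, from 97.8 and 77.6 to 10.9 and 29.8 CPM. Xcl1 was carried by few cells.

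**Figure D5:**
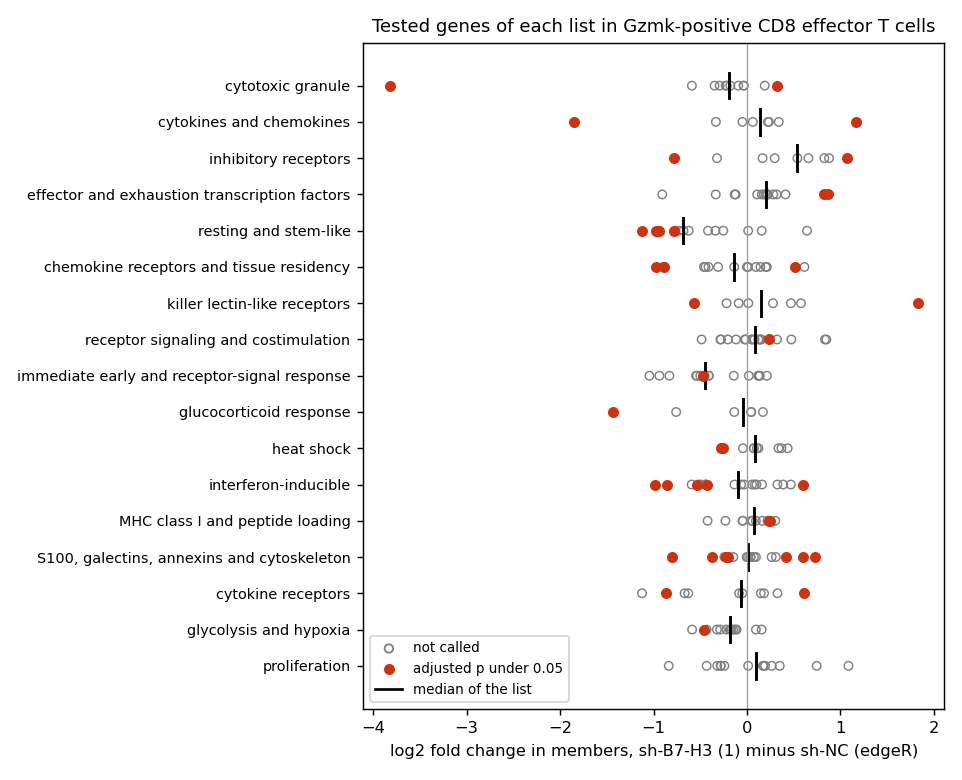
log2 fold change between groups in members (x axis, edgeR) for the tested genes of 17 lists (rows), with called genes filled and the median of each list as a bar. The resting and stem-like list has its median at -0.68 with 4 genes called lower, and most other medians lie within 0.2 of 0. The point far to the left is Gzma at -3.82, carried by few cells.

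Shares of cells with a UMI were also taken at a common depth of 3000 UMIs per cell, here for 3 genes chosen after their values were seen. S100a4 was found in 63.2 and 67 against 77.4 and 73.8% of members (control against knockdown, unthinned 72.7 and 82.4 against 83.1 and 81.7%) and in 0.568 and 1.03 against 1.88 and 4.83% of Ccl5-low CD8 cells. Ccl3 was found in 13.2 and 11 against 28.2 and 19.9% of members (unthinned 14.3 and 14.7 against 42.7 and 30%) and in 0.406 and 0.686 against 3.12 and 3.22% of Ccl5-low cells. Tcf7 was found in 15.8 and 11 against 4.52 and 9.22% of members (unthinned 22.1 and 21.6 against 10.7 and 14.8%) and in 54.4 and 55.2 against 46.6 and 44.4% of Ccl5-low cells. The unthinned shares overlapped between the groups for S100a4. Of 647 members, 12 were shallower than 3000 UMIs and were left out of these shares.

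Whether members responded differently from other CD8 cells was tested as an interaction of class and group, with library as a block. Against Ccl5-low cells, 60 of 9273 genes differed (0.647%), 22 with a more positive and 38 with a more negative change in members. The 60 include the rule genes Ccl5, Pdcd1, Lag3 and Ifit1, whose values shaped the classes. They also include Prss2, Olfr1369-ps1 and Frmd4a, at 0 CPM in members of both control libraries, and macrophage genes such as C1qb and Lyz2. The count is therefore no measure of how differently members responded. Ifngr1 fell by 0.87 in members and had a log2 fold change of -0.17 in Ccl5-low cells, where it was at 65.2 and 66.8 against 53.3 and 55.2 CPM (difference -0.70 ± 0.16, adjusted p = 0.0119). Klf2 fell by 0.94 in members and by 0.20 in Ccl5-low cells (difference -0.74 ± 0.16, adjusted p = 0.00423). It was at 454 and 440.4 against 366 and 358 CPM in Ccl5-low cells and at 130.4 and 149 against 62.5 and 71.3 CPM in members. In CPM the falls of Klf2 were thus of comparable size, so this difference is one of ratios. The part of free RNA in it was not tested. Emb and Itgb7 fell in members and had log2 fold changes of -0.05 and 0.05 in Ccl5-low cells (differences -0.94 ± 0.19, adjusted p = 0.00263, and -0.93 ± 0.20, adjusted p = 0.0037). Ifi27l2a rose in members and fell by 0.18 in Ccl5-low cells (difference 0.80 ± 0.11, adjusted p = 4.95e-07). For S100a4, S100a6 and Ccl3 the Ccl5-low cells showed the larger log2 fold change, from levels of 4.41 and 5.84 against 15.0 and 18.6, 8.52 and 8.91 against 26.3 and 25.9 and 1.36 and 1.93 against 14.0 and 12.9 CPM, under those of droplets without a cell. Against Gzmb-high cells, 15 of 6364 genes differed (0.236%), 4 more positive and 11 more negative in members, but 0 without either knockdown library by edgeR (159 and 175 genes at an unadjusted p under 0.05), so no difference from that class is drawn from these data.

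Surface tags of members changed between the groups in a way that depended on scaling. With TMM, 64 of 197 tags passed (32.5%), 27 higher (13.7%) and 37 lower (18.8%), while with library totals 152 passed, 140 higher and 12 lower, and the median of all tags moved from 0.02 to 0.47. A single tag, CD90.2 (Thy-1, chosen after its values were seen), took 381075 and 385702 against 308133 and 316094 of every 1000000 tag UMIs in members, and tag UMIs per member had medians of 6040 and 5326 against 5071 and 3747. The 16 tags named by their rank kept their direction under both scalings. Ly-6C, a glycoprotein of memory-type and recirculating cells, fell most, from 97.6 and 73.9 to 28.1 and 27.0 UMIs per member (log2 fold change -1.70 ± 0.14, adjusted p = 0.000499), and Ly-6A/E (Sca-1) from 93.4 and 80.0 to 52.1 and 49.2 (-0.85 ± 0.12, adjusted p = 0.00255), the same direction as the RNA of Ly6c2 and Ly6a. In droplets without a cell both tags were lower in knockdown libraries as well, at 36742 and 37663 against 10757 and 12719 and 29779 and 29386 against 14782 and 16429 per 1000000 tag UMIs, and the part of unbound tag was not tested. CD45 (85.2 and 78.5 against 48.0 and 33.7 UMIs per member), CD36 (10.3 and 7.64 against 4.62 and 4.22), CD2 (124 and 106 against 76.5 and 55.1), HVEM (116 and 105 against 75.1 and 56.2), CD73 (17.1 and 12.6 against 10.97 and 7.34) and CD1d (15.5 and 13.2 against 9.66 and 8.31) were lower too, with log2 fold changes of -1.11, -1.08, -0.91, -0.85, -0.80 and -0.75. All these sizes are with TMM and rest on the scaling.

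The 8 highest tags were CCR8, CD22, CD79b, OX40 ligand, folate receptor beta, Tie-2, CCR4 and Tim-1, with log2 fold changes of 1.10, 1.06, 0.84, 0.73, 0.69, 0.67, 0.66 and 0.64. Their sizes are also with TMM and rest on the scaling. All 8 were at low counts, from 1.05 to 14.2 UMIs per control member and from 2.57 to 23.9 per knockdown member. The 9 isotype control antibodies, which bind no mouse antigen, made up 0.240 and 0.223% of tag UMIs in control and 0.338 and 0.371% in knockdown members. The CCR8 tag was at 759.7 and 795 against 1389 and 1324 per 1000000 tag UMIs in droplets without a cell. The tags CD38, CD39 and PD-1 were higher on members than on Ccl5-low cells, while no tag passed against Gzmb-high cells. Between the groups these tags were called lower with TMM (-0.43 ± 0.07, adjusted p = 0.00419, -0.37 ± 0.08, adjusted p = 0.0102, and for PD-1, whose gene the rule used, -0.40). Yet their shares of tag UMIs were close, for CD38 83402 and 85682 against 87657 and 83418 per 1000000. No direction between the groups is therefore given for them. For genes with a called RNA change and a tag that did not pass, the values were 0.11 ± 0.10 for CD69, -0.11 ± 0.06 for CD122 (the Il2rb product), 0.02 ± 0.08 for CD160, 0.25 ± 0.14 for CD200R and -0.26 ± 0.08 for CD226.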

How the data were processed

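Counts of UMIs for 32285 genes and 197 named tags (9 isotype controls) were deposited for called barcodes and for all barcodes. The authors made them with Cell Ranger (6.1.1 per the file headers, another version in the methods) and STAR against mm10, without normalization. 1 unnamed tag was left out. The limits on genes and mitochondrial UMIs follow the study's methods. Members and gene lists were chosen with earlier results of these data known. Doublets were not removed in the values given: Scrublet's automatic threshold marked 0.026 to 0.152% of cells and so did not work, and removing the top 10% of scores was an alternative. Droplets without a cell were uncalled barcodes with at most 100 UMIs.

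Counts were summed per library over cells and tested with edgeR 4.0.16 (quasi-likelihood, TMM, filterByExpr for genes, at least 10 counts in at least 2 libraries for tags, Benjamini-Hochberg over all tested features, called at an adjusted p under 0.05), with DESeq2 1.42.0 as an alternative. R 4.3.3 and Python 3.11.15 were used, and the procedures were tested on simulated data. Named genes were the 12 called genes rising most and the 12 falling most with at least 50 CPM and no overlap of the groups. Left out of these were rule genes, mitochondrial, ribosomal and receptor segment genes, Gm42418 and AY036118. Also named were the markers and the rule genes. Each list gave up to 4 called genes of at least 20 CPM, or the 2 most abundant where none was called. Tags were the 8 highest and 8 lowest called. Further genes (Actb, Actg1, Pfn1, Tmsb10, Tmsb4x, Ly6e, Trdc, Prss2 and genes that did not pass) and CD90.2 were named after their values were seen. Promoter sequences came from RefSeq (GRCm38.p6). Some results that these rules select are not reported here.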

Additional observations from a re-analysis of the deposited data

Results flagged for a closer look

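The interaction test of edgeR flagged 22 pairs of named gene and class, in which the difference between groups was called unlike in members and another class of CD8 cells. No difference from Gzmb-high cells is drawn from the pairs with that class. Values are the log2 fold change in members minus that in the other class. Against Ccl5-low CD8 cells, members had the more negative change for Klf2 (-0.74), Itgb7 (-0.93), Emb (-0.94), S1pr1 (-1.04), Ifngr1 (-0.70) and Ly6c2 (-0.84). These genes were at 53.3 CPM or more in the Ccl5-low cells of every library, and the part of free RNA in their values was not tested. Members had the more positive change for Ifi27l2a (0.80), Cd3g (0.30) and B2m (0.17). For Ccl3 (-1.92), S100a4 (-1.12), S100a6 (-1.07), Adgrg1 (-3.64), Lgals3 (-1.54), Tcrg-C2 (-3.17) and Xcl1 (-4.77), the Ccl5-low cells held at most 30.3 CPM in any library, and all 7 were more abundant in droplets without a cell than in Ccl5-low cells in every library. The macrophage gene Apoe had -1.51.

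Against Gzmb-high CD8 cells the values were -2.78 for Xcl1, -3.16 for Gzma, 2.10 for Klre1, -1.87 for Apoe and -1.82 for the MHC class II invariant chain gene Cd74. None was called without knockdown library 1 or without knockdown library 2. Gzma UMIs were found in at most 5 members of a library, while Gzmb-high cells held 448 and 629 against 286 and 353 CPM (control against knockdown).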

How the results depend on the processing

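The share of members stayed higher in the knockdown group under every alternative run, with ratios of 3.61 to 4.75 among kept cells and 4.22 to 5.11 among Cd8 RNA cells, and 3.47 to 5.57 and 3.97 to 6.06 when 1 library was left out. The 157 genes called became 301 with up to 5000 detected genes per cell, 103 with no Gzmb UMI allowed, 48 with at least 2 Gzmk UMIs, 78 by DESeq2, 38 with a limit of 1 on the size of the log2 fold change, and 108 to 156 without 1 library. The tags called in members became 152 with library totals, 5 with the fold limit and 44 to 66 without 1 library; members against Ccl5-low cells gave 154, 14 and 44 to 48, and members against Gzmb-high cells 1 with library totals and 0 otherwise. Leaving out the TIGIT tag, at 0.787 and 0.534 UMIs per knockdown member, gave 67 tags. This setting and library totals were chosen after seeing the data. The interaction with Ccl5-low cells gave 30 genes with the fold limit and 33 to 63 without 1 library, that with Gzmb-high cells 0 to 23. Over named genes and tags, 1618 recomputed log2 fold changes kept direction and call, 212 lost and 35 gained the call, and 25 reversed. Of the genes called in members, Xcl1 reversed, to 0.31 with at least 40 Ccl5 UMIs. The other reversals were of genes not called: with up to 5000 detected genes Apoe 0.060, Tyrobp 0.067 and Prf1 0.0058, without macrophage or B cell UMIs Apoe 1.46 (called) and Prf1 0.10, without the top 10% of doublet scores Apoe 0.58, Ighm 0.18, Ccl4 -0.060 and Prf1 0.013, in members thinned to at most 4000 UMIs Ighm 0.20, Prf1 0.097 and S100a10 -0.00956, with no Gzmb UMI Tcrg-C2 0.044, with at least 2 Gzmk UMIs Prf1 0.074, and with library totals S100a10 -0.074. Without 1 library values of both signs were given by Apoe (-1.44 to 1.05, called at both ends), Cd74 (-0.74 to 1.69), Eomes (-0.072 to 0.41), Tcrg-C2 (-0.29 to 0.030), Ccl4 (-0.11 to 0.76), Prf1 (-0.16 to 0.15) and S100a10 (-0.033 to 0.14). Named features without an adjusted p from DESeq2 are not counted there, and 1109 of 6664 genes had one. The causes were not tested.

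The labels do not say that replicate numbers pair libraries, and deviations of same-numbered libraries correlated at r = 0.083 over 2350 genes and 0.175 over 196 tags. With a replicate block, 209 genes were called, among them all 157, and 54 tags. A left-out lane leaves 1 library in a group, which is then assumed to vary like the other group. Few members in the control libraries (77 and 102) limit what is detectable.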

Other observations

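The receptor genes of members, named here after their values were seen, gave further values. Trac, the T cell receptor alpha constant gene, had a UMI in 94.8 to 99.0% of members in every library. Trbc1, 1 of the 2 beta constant genes, had a UMI in 57.1 and 43.1% of control and 69.7 and 65.5% of knockdown members, while Trbc2 was found in 99.3 to 100% of members. Tcrg-C2, a gamma constant gene that alpha-beta T cells can transcribe, was found in 24.7 and 24.5% of control and 29.2 and 28.3% of knockdown members, and Trgv2 in 18.2 and 18.6% against 26.4 and 25.2%. The delta constant gene Trdc was found in 0 of 77 and 1 of 102 control members and in 4 of 178 and 11 of 290 knockdown members.

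Prss2, a trypsinogen gene that lies within the T cell receptor beta locus, had a UMI in 0 of 77 and 0 of 102 control members and in 6 of 178 and 19 of 290 knockdown members. None of these 25 members held a Trdc UMI, and 6 held a Trbc1 UMI. By exact binomial 95% intervals, the control counts allow shares of members with a UMI of up to 4.68 and 3.55%, which limits cells with a UMI and not cells expressing the gene, and the knockdown shares were 3.37% (1.25 to 7.19%) and 6.55% (3.99 to 10.0%). In summed counts Prss2 was at 0 and 0 against 29.0 and 41.0 CPM. It passed the filter on low counts only through the knockdown libraries, so no test of it is given.

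A single beta variable segment was read in 19 and 28 control and 52 and 80 knockdown members. Trbv2 was the most frequent in the control libraries, with 4 of 19 (as many as Trbv15) and 5 of 28, and Trbv16 in the knockdown libraries, with 7 of 52 and 10 of 80. In Ccl5-low CD8 cells Trbv2 was also the most frequent in the control libraries, with 61 of 685 and 59 of 573. There Trbv19 led in the knockdown libraries, with 11 of 88 and 13 of 126, and Trbv16 had 10 of 88 and 6 of 126. Libraries of this chemistry read the 3′ end of transcripts, and most members had no segment read.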
